A study of Mus musculus with 2 samples.

Results

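Clustered histone genes code for the bulk histones that package new DNA and lie together in a few groups of many near-identical copies. The Agilent whole mouse array used here names 36 of them, taken as every gene whose array name starts with Hist1h, Hist2h, Hist3h or Hist4h, out of 27827 gene names on the array. They are read by 46 of 41174 probes, each a DNA strand of 60 bases printed once per array. There are 6 genes for the linker histone H1, 11 for H2A, 10 for H2B, 3 for H3 and 6 for H4.

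RNA came from prostaspheres, spheres of mouse prostate epithelial cells grown in Matrigel, in which Sox9 is deleted when tamoxifen (TAM) activates a Cre recombinase, named ERCre in the labels and carried at Rosa26 by the mice that the methods list. Epithelium of the urogenital sinus was taken at 16 days post conception according to the labels, whereas the methods describe adult prostate tissue for the prostasphere assay, and spheres grew for 6 days with dihydrotestosterone before 6 days of 5 µM TAM or of vehicle. On the genotype array, RNA of wild-type spheres given TAM (the wild-type RNA, dye Cy5, with C57/Bl6J the only strain without floxed Sox9 in the growth protocol) was set against RNA of ERCre+/+Sox9flox/flox spheres given TAM (the deleted RNA, dye Cy3). On the treatment array, RNA of ERCre Sox9flox/flox spheres given vehicle (the vehicle RNA, Cy5) was set against RNA of the same genotype given TAM (the second deleted RNA, Cy3). The genotype label of the treatment array reads Sox9 null for both of its RNAs, so the treatment alone told them apart. Both arrays lie on 1 slide with no swap of dyes, so a preference of a probe for a dye cannot be told apart from Sox9, and on the genotype array neither can the mouse line nor, on the treatment array, TAM itself. No label says that the cultures behind the 2 arrays were separate, so the p-values measure at most the spread between these 2 arrays.

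Bulk histone genes are switched on in S phase, when DNA is copied, through the coactivator Npat and promoter elements particular to each class. Their mRNAs are unusual in ending in a short hairpin, the histone stem-loop, which Slbp binds, in place of a poly(A) tail. Longer forms with a poly(A) tail are also known for some of these genes. The labels state that the RNA was copied for labeling from an oligo-dT primer, which starts at poly(A), so the brightness of these probes cannot be read as the amount of histone mRNA in the cells.

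Many probes do not read a single gene. The file lists more than 1 current RefSeq gene for 13 of the 46 probes, and 11 pairs of probes for different genes share an exact run of at least 20 bases. Hist1h2bk, Hist1h2bm and Hist3h2bb, which read the H2B coding region, are shown because they differed widely between the arrays. Capitals mark bases that differ from the Hist1h2bk probe or lie outside it (build mm9, chr13:22127928-22127987, plus strand, chr13:21814139-21814198, plus strand, and chr11:58767697-58767756, minus strand).
Hist1h2bk: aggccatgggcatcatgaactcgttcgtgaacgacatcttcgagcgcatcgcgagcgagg
Hist1h2bm: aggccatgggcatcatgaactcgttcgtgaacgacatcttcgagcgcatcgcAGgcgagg
Hist3h2bb: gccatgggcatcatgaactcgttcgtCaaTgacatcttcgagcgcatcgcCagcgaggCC
The Hist1h2bm probe differed from that of Hist1h2bk at 2 bases, and the Hist3h2bb probe at 3 with 2 more outside. These 3 probes can therefore capture each other's targets and are not independent readings.

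The same holds for H2A. The probe named for Hist1h2aa, a germ cell histone, shares its first 44 bases, in capitals, with that of Hist1h2af (mm9 chr13:24026659-24026718 and chr13:23626108-23626167, both on the plus strand). The probe for Hist1h2ak starts at the start codon and shares 40 bases, again in capitals, with the second probe of Hist1h2af (chr13:21845637-21845696, minus strand, and chr13:23625800-23625859, plus strand).
Hist1h2aa: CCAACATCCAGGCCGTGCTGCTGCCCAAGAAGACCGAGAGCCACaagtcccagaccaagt
Hist1h2af: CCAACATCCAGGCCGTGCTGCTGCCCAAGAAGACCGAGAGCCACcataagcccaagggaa
Hist1h2ak: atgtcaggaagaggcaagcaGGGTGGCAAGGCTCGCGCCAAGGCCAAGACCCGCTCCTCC
Hist1h2af, second probe: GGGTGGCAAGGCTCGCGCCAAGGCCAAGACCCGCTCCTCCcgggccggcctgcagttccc
Brightness on the Hist1h2aa probe is therefore no measure of that germ cell gene alone.

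H1 probes are different, since each of them is listed for at most 1 RefSeq gene and none shares a run of 20 bases with another histone probe. The probes of Hist1h1a, Hist1h1b and Hist1h1e, which gave the highest H1 ratios, all lie in the coding region (mm9 chr13:23855888-23855947, plus strand, chr13:21871923-21871982, minus strand, and chr13:23713707-23713766, minus strand).
Hist1h1a: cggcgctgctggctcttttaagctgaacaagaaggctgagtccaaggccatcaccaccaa
Hist1h1b: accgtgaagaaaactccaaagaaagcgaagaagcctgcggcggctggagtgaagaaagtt
Hist1h1e: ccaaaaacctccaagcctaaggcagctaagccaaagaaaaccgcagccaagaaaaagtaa

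A search of the histone probes for hairpins, with arms of 6 bases around a loop of 4, found 1, the histone stem-loop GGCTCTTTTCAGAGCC in the probe of Hist1h3a. Its 16 letters, counted on the strand of the probe when whole or when at least 10 of them run into the probe's end, occur in 3 of all probes on the array (0.00729%), and all 3 are histone probes. The windows of 30 bases below show the letters in capitals, within probes at mm9 chr13:23853756-23853815 (minus strand), chr13:23843392-23843451 (plus strand) and chr13:23662489-23662548 (minus strand).
Hist1h3a: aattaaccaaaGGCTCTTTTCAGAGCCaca
Hist1h2ab: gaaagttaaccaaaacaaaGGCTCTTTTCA
Hist1h2ae: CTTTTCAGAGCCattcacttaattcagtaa
All 3 probes were dim. Hist1h3a was well above background, by the mark of the scanner software, in both RNAs of the treatment array and in neither of the genotype array. Hist1h2ae was marked in both deleted RNAs and in neither Sox9-expressing RNA, so no fold is given, and Hist1h2ab was marked in all 4 RNAs.

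Brightest probes of 28 of the 36 histone genes were well above background in all 4 RNAs, against 50.5% of all genes on the array. By class this was 5 of 6 H1 genes, 8 of 11 H2A, 7 of 10 H2B, 2 of 3 H3 and 6 of 6 H4. The brightest probe of another 5 genes was above background in none, and among them was Hist1h1t, the H1 of the testis. Testing needed that mark on both arrays for one and the same dye, which kept 29 genes. Those not tested were Hist1h1t, Hist1h2ac, Hist1h2al, Hist1h2be, Hist1h2bp, Hist1h3a and Hist2h2bb.

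Every log2 ratio below is Sox9-expressing over Sox9-deleted RNA, so a positive value is higher with Sox9, and mean ± SD is over the 2 arrays (n = 2). No histone gene passed limma's test at an adjusted p under 0.05 (0 of 29), at which limma called 0.0132% of 15122 genes tested across the array. At an unadjusted p under 0.05, limma gave 7 histone genes higher with Sox9 (24.1%, against 10.5% of all genes tested) and 5 lower (17.2%, against 9.08%), 12 in all (41.4%, against 19.6%). A ratio of at least 2-fold on either array was seen in 3 of 29 (10.3%, against 3.13%), namely Hist1h1a, Hist1h2ak and Hist1h2bc, and on both arrays in 0 (against 0.536%). On both arrays 11 of 29 were higher and 10 lower (37.9% and 34.5%, against 33.9% and 33.8% of all genes) and 8 had opposite signs (27.6%, against 32.4%), so the signs alone were near the background, and with each array centred only on its median the counts became 13 and 3. The 10 include Hist1h2ae, and of the 28 genes above background in both dyes on both arrays 11 were higher and 9 lower. The median over the 29 genes was 0.02, and over all genes it was 0.00. These genes are not independent readings, since 10 of the 29 probes are listed for several genes.

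**Figure D1:**
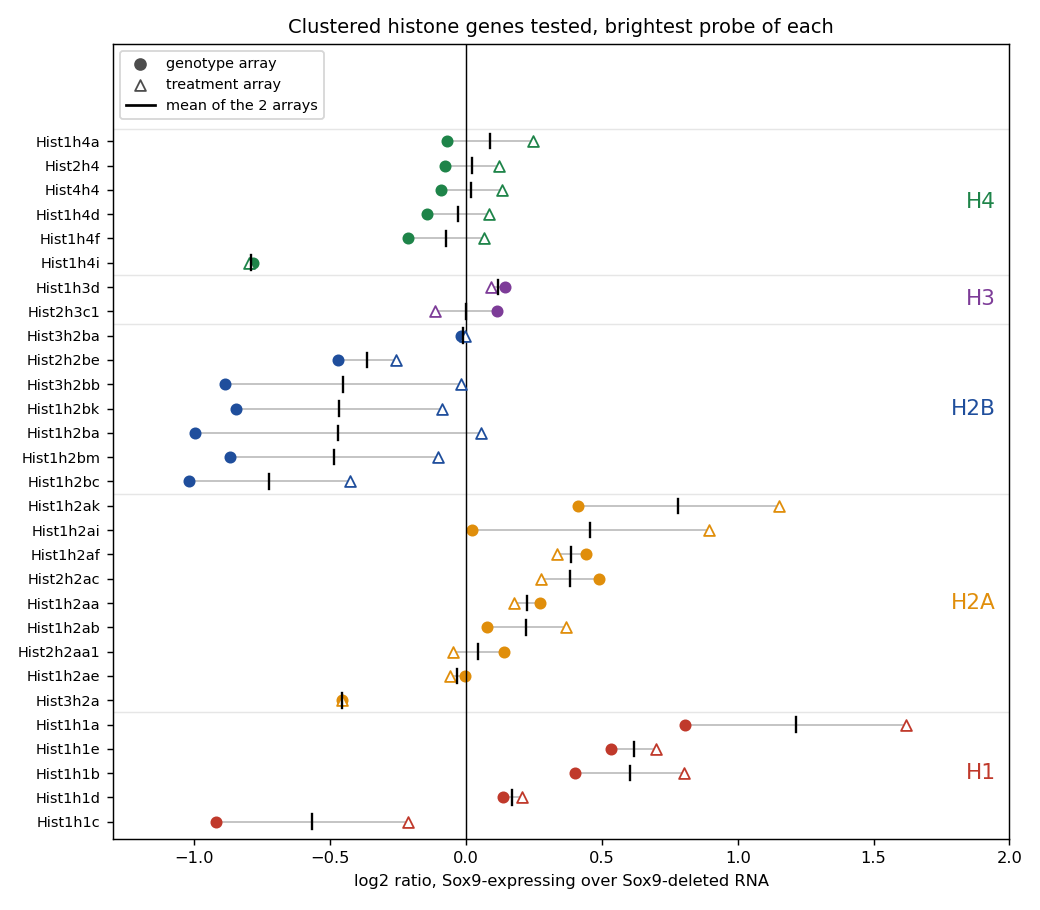
Log2 ratio of Sox9-expressing over Sox9-deleted RNA (x axis) for the brightest probe of each of the 29 histone genes tested, ordered by class and mean. Filled circles are the genotype array, open triangles the treatment array and bars their mean; 4 of 5 H1 genes lie to the right of 0 on both arrays, and all 7 H2B means lie to the left. Hist1h2ae was not well above background in Sox9-expressing RNA.

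H1, the linker histone that binds DNA between nucleosomes, was higher with Sox9 on both arrays for 4 of 5 genes tested, against 33.9% of all genes tested. The remaining gene, Hist1h1c, was lower on both arrays. With median centring Hist1h1c was 0.43 on the treatment array, where the median over the probes tested then stood at 0.38, and the other 4 stayed above 0. With the mean over all tested probes of a gene 3 of 5 were higher on both, and a second probe of Hist1h1d was at -0.21 and -0.14. Hist1h1a had a normalized brightness of 617 in the wild-type RNA and 353 in the deleted RNA of the same array, and of 916 in the vehicle RNA and 298 in the second deleted RNA. Both Sox9-expressing RNAs were thus above both deleted RNAs. The share of all genes whose groups lie apart in this way is not given here. Such separation is therefore only described, here and below. Normalized brightness is background-corrected, balanced between the dyes and set to one distribution across the arrays, and it compares RNAs on 1 probe only. The log2 ratios of Hist1h1a were 0.81 and 1.62, a mean of 1.21 ± 0.58, the highest of any histone gene tested (limma adjusted p = 0.156). Over the alternatives limma's adjusted p ran from 1.66e-05, with median centring, to 0.296. With median centring the SD of Hist1h1a was 0.90, and limma's p there did not follow a gene's own SD.

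Hist1h1e measured 1321 and 912 on the genotype array and 1415 and 871 on the treatment array. Here too the groups did not overlap, and the ratios of 0.53 and 0.70 (mean 0.62 ± 0.12, limma unadjusted p = 0.00224 and adjusted p = 0.12) lay close together. Hist1h1b, one of the H1 forms typical of dividing cells, was dim at 184 and 139 on the genotype array and 249 and 143 on the treatment array. Its mean was 0.60 ± 0.28, with both Sox9-expressing RNAs above both deleted RNAs (limma adjusted p = 0.177). Hist1h1d gave 0.14 and 0.20, with an unadjusted p of 0.0879 by limma.

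Hist1h1c went the other way, most of all on the genotype array. It measured 2299 in the wild-type RNA, 3636 in the vehicle RNA and 4353 and 4217 in the deleted RNAs, so the Sox9-expressing RNAs were below both deleted ones but far from each other. Its log2 ratios were -0.92 and -0.21 (mean -0.57 ± 0.50, limma adjusted p = 0.279). Its only probe starts at base 1346 of the record, counted from 0, well beyond the coding region.

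H1 promoters carry a distinctive element, the H1 box AAACACA, upstream of a CCAAT box. The stretches below run from 125 bases before the RefSeq start to the base before it (GRCm38.p6, with chr13:23763543-23763667, chr13:21780626-21780750, chr13:23738682-23738806, chr13:23554907-23555031 and chr13:23622559-23622683 in the order printed, the 2nd and 5th on the minus strand), with AAACACA and CCAAT of either strand in capitals, because these 5 are the H1 genes tested.
Hist1h1a: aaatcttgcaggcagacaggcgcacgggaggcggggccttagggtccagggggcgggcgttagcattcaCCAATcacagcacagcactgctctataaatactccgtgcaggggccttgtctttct
Hist1h1b: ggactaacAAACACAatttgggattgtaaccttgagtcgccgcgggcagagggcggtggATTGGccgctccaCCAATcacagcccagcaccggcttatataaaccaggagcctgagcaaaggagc
Hist1h1c: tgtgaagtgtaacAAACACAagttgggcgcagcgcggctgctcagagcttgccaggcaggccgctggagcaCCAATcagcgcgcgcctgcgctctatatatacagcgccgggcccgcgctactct
Hist1h1d: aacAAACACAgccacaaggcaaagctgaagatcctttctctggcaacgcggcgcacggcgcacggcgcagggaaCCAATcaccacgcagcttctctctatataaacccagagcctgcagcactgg
Hist1h1e: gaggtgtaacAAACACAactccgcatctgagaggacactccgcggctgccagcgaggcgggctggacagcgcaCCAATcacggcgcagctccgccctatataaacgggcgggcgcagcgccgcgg
Letters AAACACA are in 4 of the 5 and not in that of Hist1h1a, the H1 gene with the highest ratio. In whole promoters, from 250 bases before to 50 after the start and on either strand, AAACACA is in 5 of 6 H1 promoters against 7.18% of 32851 RefSeq promoters, and CCAAT in 6 of 6 against 37.4%. AAACACA is also in 2 of 10 H2A and 2 of 7 H2B promoters, and in 0 of 2 H3 and 0 of 5 H4. CCAAT is not particular to H1, being in 10 of 10 H2A, 7 of 7 H2B, 2 of 2 H3 and 2 of 5 H4 promoters. The octamer ATTTGCAT, known from H2B promoters, is in 4 of 7 H2B and 6 of 10 H2A promoters matched, in 0 of 6 H1, 0 of 2 H3 and 0 of 5 H4, and in 1.74% of all. Of the 36 histone genes, 30 matched a promoter. These matches describe the letters in the windows and not the binding of a factor.

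H2A, a core histone, was higher with Sox9 on both arrays for 6 of 9 genes tested, against 33.9% of all genes tested. Hist3h2a was lower on both, and Hist1h2ae, which passed the filter only through the deleted RNAs, is not read in either direction. With median centring 7 were higher on both. A set of 3 probes near the start of the coding region that share runs of 26 to 40 bases (Hist1h2ak, Hist1h2ai and the second of Hist1h2af) had the vehicle RNA raised, whereas the probe of Hist2h2aa1, also near the start, did not, with 621 and 564 on the genotype array and 587 and 607 on the treatment array. Hist1h2af is read by probes from bases 328 and 20 of its record. With that from base 328 it measured 27562 and 20316 on the genotype array and 26292 and 20858 on the treatment array. Its Sox9-expressing RNAs were above the deleted ones by a like amount, with log2 ratios of 0.44 and 0.33 (mean 0.39 ± 0.07, limma adjusted p = 0.17). With the probe from base 20 it measured 1698 and 1193, and 2674 and 1133. The log2 ratios there were 0.51 and 1.24, and the vehicle RNA stood out.

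Hist2h2ac was like the Hist1h2af probe from base 328, with 28685 and 20443 on the genotype array and 27231 and 22470 on the treatment array. Its mean was 0.38 ± 0.15 (limma adjusted p = 0.191), and its second probe gave 0.33 and 0.16. Hist1h2aa, with the shared run printed above, gave 0.27 and 0.18 (mean 0.22 ± 0.07, adjusted p = 0.276). Hist1h2ak, whose probe shares 40 bases with the Hist1h2af probe from base 20, measured 1370 in the wild-type RNA, 2225 in the vehicle RNA and 1031 and 1001 in the deleted RNAs. Its log2 ratios of 0.41 and 1.15 again put the vehicle RNA highest (mean 0.78 ± 0.52, limma adjusted p = 0.209). Hist1h2ai was the same at 0.02 and 0.89, so that its wild-type RNA, at 772, did not stand above the deleted RNAs at 761 and 757.

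Hist3h2a was the exception among H2A genes. Its brightest probe measured 1789 in the wild-type and 1769 in the vehicle RNA against 2455 and 2425 in the deleted RNAs. The log2 ratio was -0.46 on both arrays (SD 0.000891, limma unadjusted p = 0.00387 and adjusted p = 0.138), but with median centring it was -0.39 and 0.13. Its other probe, in the coding region, was at 0.18 and 0.16.

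H2B, the partner of H2A in the nucleosome, had 0 of 7 genes higher on both arrays and 6 of 7 lower, against 33.9% and 33.8% of all genes tested. With median centring the counts were 0 and 1, and the median of H2B on the treatment array was 0.61. With the mean over all tested probes of a gene they were 0 and 5. The second probe of Hist1h2bk was at -0.83 and 0.14. By brightest probe, with loess, the median log2 ratio of H2B was -0.87 on the genotype array and -0.09 on the treatment array. The wild-type RNA was the lowest of the 4 RNAs for 7 of 7 H2B genes, and the vehicle RNA for 0. Among all 29 histone genes tested the wild-type RNA was lowest for 11, and the share over all genes is not given here. The 7 include the 3 probes of near-identical sequence. They also include Hist3h2ba, at 126 in the wild-type RNA, 129 in the vehicle RNA and 128 and 129 in the deleted RNAs. Hist1h2bk measured 5190 in the wild-type RNA and 7705 in the vehicle RNA, against 9337 and 8194 in the deleted RNAs. Its wild-type RNA therefore stood apart, with the vehicle RNA near the deleted ones.

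Hist1h2bm, at 5694, 8400, 10400 and 9025 in the same order, and Hist3h2bb, at 3434, 5268, 6352 and 5338, repeated the pattern on probes of near-identical sequence. The log2 ratios of the 3 genes ran from -0.89 to -0.85 on the genotype array and from -0.10 to -0.02 on the treatment array. Hist1h2ba, the testis form of H2B, is read by a probe that shares at most 14 bases in an exact run with another H2B probe, but 35 of 40 overlapping bases with those of Hist1h2bk and Hist1h2bm and 32 of 38 with that of Hist3h2bb. It cannot therefore be taken to measure the testis gene alone, although its capture of other H2B targets was not tested. It measured 1751 in the wild-type RNA, 3396 in the vehicle RNA and 3496 and 3267 in the deleted RNAs, with log2 ratios of -0.997 and 0.06. The means of these 4 genes lay between -0.49 and -0.45 with SDs from 0.54 to 0.74, and limma's adjusted p ran from 0.339 to 0.447. The median SD between the arrays was 0.54 over the 7 H2B genes, against 0.10 over all genes tested.

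Hist1h2bc and Hist2h2be were lower with Sox9 on both arrays. Hist1h2bc measured 438 in the wild-type and 629 in the vehicle RNA, against 890 and 846 in the deleted RNAs. Its groups did not overlap, and its log2 ratios were -1.02 and -0.43 (mean -0.72 ± 0.42, limma adjusted p = 0.189), although median centring put the second at 0.09. Hist2h2be was dim, with 129 and 153 against 178 and 183, and log2 ratios of -0.47 and -0.26 (mean -0.36 ± 0.15, adjusted p = 0.2). Hist3h2ba differed by no more than 0.02 on either array.

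Hist2h2bb was not tested. It was well above background only in the wild-type RNA, at a normalized brightness of 231 against 114, 96.9 and 99.4 in the deleted, vehicle and second deleted RNAs. The reading rests on a single spot, whose mean and median pixel brightness before correction were both 281.

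**Figure D2:**
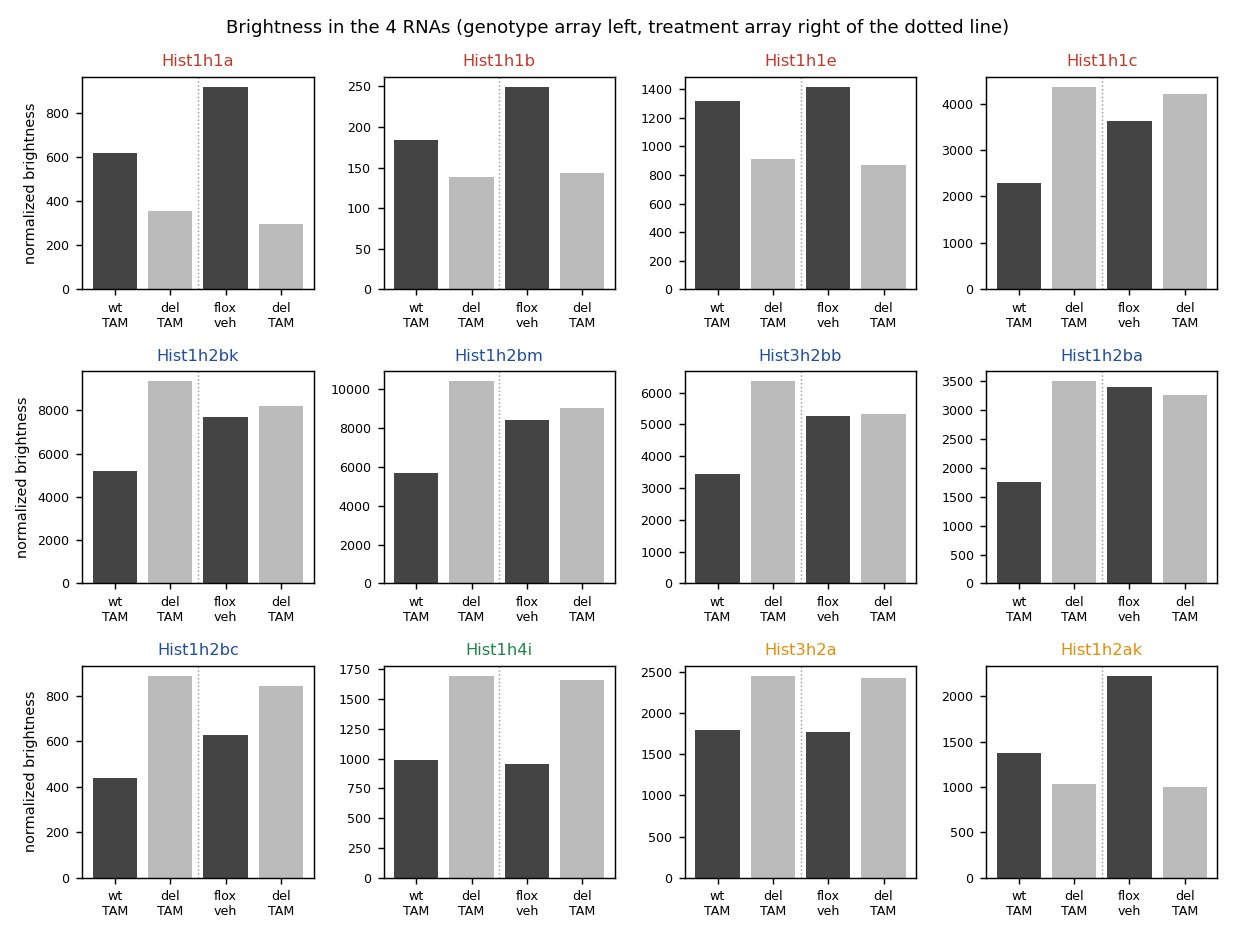
Normalized brightness (y axis, linear from 0, 1 probe a panel) in the wild-type RNA (wt TAM), the deleted RNA of the same array (del TAM), the vehicle RNA (flox veh) and the second deleted RNA for 12 histone genes, each bar 1 measurement. Dark bars are Sox9-expressing RNA; in the H2B genes Hist1h2bk, Hist1h2bm, Hist3h2bb and Hist1h2ba the wild-type bar alone is low, whereas in Hist1h1a and Hist1h1e both dark bars are high and in Hist1h4i both are low.

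Markers of other cell types also differed between the arrays. All 5 fibroblast markers examined were lower in the wild-type RNA, by log2 ratios from -1.63 (Col3a1) to -0.40 (Vim), and 4 of 5 were higher in the vehicle RNA, up to 1.13 for Col3a1. Their summed normalized brightness was 18255 in the wild-type RNA, 42380 in the vehicle RNA and 32816 and 29815 in the deleted RNAs. Smooth muscle markers summed to 6130, 15787, 8081 and 9154 in the same order. Both lists were thus lowest in the wild-type RNA, as were the H2B genes, but highest in the vehicle RNA, where H2B was not. Their part in the H2B result was not tested, and in RNA of whole spheres fewer cells of a type and less RNA per cell cannot be told apart.

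H3 and H4, which form the core of the nucleosome, showed little on most probes. Hist1h3d measured 20950 and 18956 on the genotype array and 18818 and 17662 on the treatment array, log2 ratios of 0.14 and 0.09 (limma adjusted p = 0.466), which the scanner software's own ratios put at a mean of -0.03. Hist2h3c1 was at 0.11 and -0.12. Of the 6 H4 genes, 5 had opposite signs on the arrays, against 32.4% of all genes tested. These 5 were lower on the genotype array (-0.21 to -0.07) and higher on the treatment array (0.07 to 0.25). Among them were Hist1h4a, at 1155 and 1213 and then 1363 and 1149, Hist1h4d at -0.14 and 0.08 and Hist1h4f at -0.21 and 0.07, and the probes of Hist1h4d and Hist1h4f share 50 bases. The second probe of Hist1h4d, early in the gene, gave 0.20 and 0.59.

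Hist1h4i was unlike the rest of its class. It measured 986 in the wild-type and 956 in the vehicle RNA against 1697 and 1663 in the deleted RNAs. The 2 values of each group lay close together and far from the other group, with log2 ratios of -0.78 and -0.80 (mean -0.79 ± 0.01). With median centring they were -0.73 and -0.24 (mean -0.49 ± 0.35). Limma's unadjusted p of 0.000525 was the lowest of any histone gene tested, and the adjusted p was 0.0903 (0.0694 to 0.541 over the alternatives). This probe was designed on an expressed sequence tag, and the file places only 7 of its 60 bases at mm9 chr13:22132449-22132455, so its gene is less certain than for the others.

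**Figure D3:**
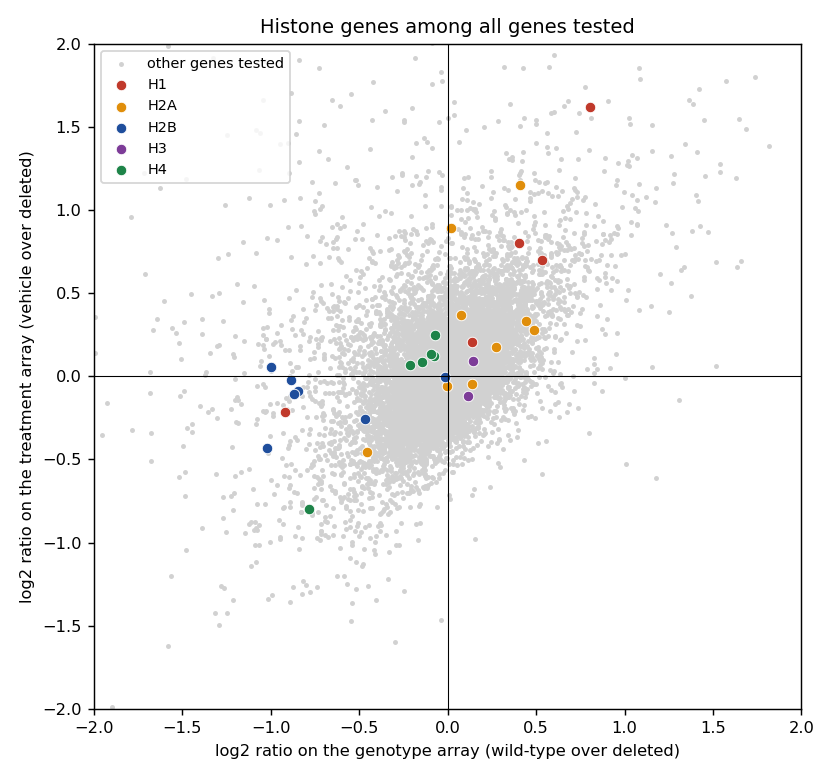
Log2 ratio on the genotype array (x axis) and on the treatment array (y axis) for every gene tested, with the 29 histone genes in color by class; 54 genes beyond 2 on either axis lie outside the plot. H2B genes lie to the left near or below the horizontal line, most H1 and H2A genes lie to the upper right, and Hist1h4i lies to the lower left.

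Placement of the probe in the transcript went with the sign in H1 and in most of H2A. It did not in H2B, where probes early and late in the record had negative means. Brightest probes of Hist1h2bk, Hist1h2bm, Hist3h2bb and Hist1h2ba, in the coding region, had means from -0.49 to -0.45. Class and place are therefore mixed in the counts below. Probes that start at base 500 of their record or later for core histones, and at base 1000 or later for H1, are called downstream here, from the place in the record alone. Of 17 such probes 6 were above background in no RNA and 9 were tested. The 9 include Hist1h2ae, above background only in the deleted RNAs. Without it 7 of 8 were lower with Sox9 on both arrays and 0 higher, against 33.8% and 33.9% of all genes tested, by brightest probe. The median of the means of these 8 was -0.41. Without Hist1h4i, whose place in its gene is not known here, the count was 6 of 7 and the median -0.36. Of the 29 other probes 27 were tested, of which 15 were higher and 3 lower, against the same 33.9% and 33.8%. The rest of the 27 had opposite signs on the arrays, and the median was 0.17. The limits at 500 and 1000 bases were chosen after the values were seen, so these counts are a description without a test.

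Within a gene the contrast can be read without comparing genes. Hist1h1d was at 0.14 and 0.20 with its coding probe, and at -0.21 and -0.14 with a probe from base 2300. In brightness, the first gave 230 and 224 in Sox9-expressing RNA against 209 and 195, and the second 125 and 131 against 145 and 145. Both Hist3h2a probes, given above, differed in the same direction, with means of 0.17 and -0.46. Hist2h2aa1 showed no such contrast, at 0.05 with its coding probe and 0.00 with a dim one from base 1673. Downstream probes tested were also poorer in G and C, at 35.0 to 45.0%, a range in which 17040 probes of the whole array had a median of 0.01. The part of G and C content in the downstream values was not tested.

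**Figure D4:**
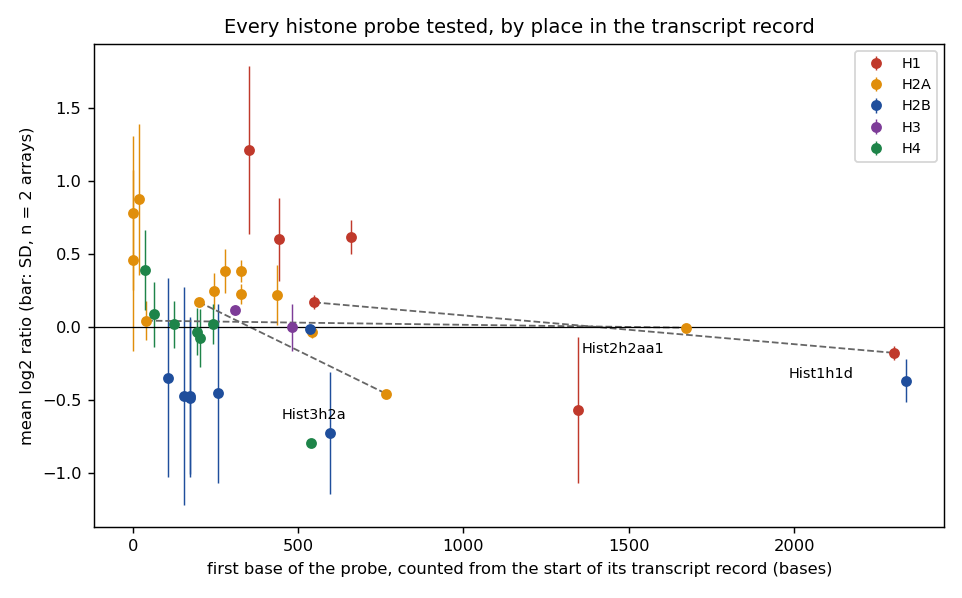
Mean log2 ratio (y axis, bars are the SD of the 2 arrays) of each of the 36 histone probes tested against its first base in the transcript record (x axis, in bases), colored by class. Dashed lines join probes of Hist1h1d, Hist3h2a and Hist2h2aa1; the probes counted as downstream lie at or below 0, and that of Hist1h2ae was above background only in deleted RNA.

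Related genes give the setting. Of 14 histones not made only in S phase, most with poly(A) tails on their mRNAs, 11 were tested. At an unadjusted p under 0.05 by limma, 7 were higher with Sox9 and 0 lower, against 10.5% and 9.08% of all genes tested (adjusted p under 0.05 in 0). H3f3a, which codes for H3.3, measured 21846 and 14262 on the genotype array and 23911 and 13687 on the treatment array, a mean log2 ratio of 0.71 ± 0.13 (limma adjusted p = 0.108). H2afv, a form of H2A.Z, was at 0.44 and 0.66, H1f0, an H1 of resting cells, at 0.45 and 0.35, and H3f3b, a second gene for H3.3, at 0.38 and 0.20. On both arrays 3 were lower, H2afx at -0.25 and -0.09, H2afy at -0.10 and -0.20 and the dim 1700113O17Rik, matched through a synonym, at -0.06 and -0.41. The list's median was 0.24.

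Of 15 genes tested that act in the transcription and the ending of histone mRNA, 0 were higher and 4 lower at an unadjusted p under 0.05 by limma, against 10.5% and 9.08% of all genes tested, with a list median of -0.06. On both arrays 3 were higher and 6 lower. Zfp473, a part of the machinery that cuts the histone mRNA end, was dim at 134 and 143 in Sox9-expressing RNA against 181 and 220, a mean of -0.53 ± 0.13 (limma adjusted p = 0.139). Upf1, which takes part in histone mRNA decay, was at -0.31 and -0.33, Sympk, a scaffold of the cutting complex, at -0.21 and -0.24, and Eri1, a nuclease of the stem-loop, at -0.43 and -0.15. Of those higher on both arrays, Cpsf3 was at 0.25 and 0.09, Slbp at 0.09 and 0.25 and Casp8ap2 at 0.20 and 0.14. Npat was at 0.06 and -0.07. Of 15 histone chaperones, 1 was higher at that threshold, Hira, which deposits H3.3, at 0.34 and 0.57 (mean 0.45 ± 0.16).

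Of 21 genes of S phase and cycling cells tested, 10 were higher with Sox9 at an unadjusted p under 0.05 and 0 lower (against 10.5% and 9.08% of all genes tested), with a median log2 ratio of 0.12 on the genotype array and 0.45 on the treatment array. Mki67, a marker of cycling cells, measured 450 and 294 on the genotype array and 701 and 270 on the treatment array. Its log2 ratios of 0.61 and 1.38 were, like those of Hist1h1a, larger on the treatment array (limma adjusted p = 0.177). Mcm5 was at 0.35 and 0.73, Mcm4 at 0.27 and 0.53 and Mcm7 at 0.35 and 0.33, all parts of the helicase that opens DNA. Of the same helicase, Mcm6 was at 0.03 and 0.53, Mcm3 at 0.09 and 0.29 and Mcm2 at -0.22 and 0.23. On both arrays 14 genes of the list were higher and 1 lower, against 33.9% and 33.8% of all genes tested, and 6 had opposite signs. The lower gene was Cdt1, at -0.15 and -0.24. Summed brightness of the list was 18122 in the wild-type RNA, 22144 in the vehicle RNA and 16406 and 16170 in the deleted RNAs, and its part in the histone values was not tested.

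**Figure D5:**
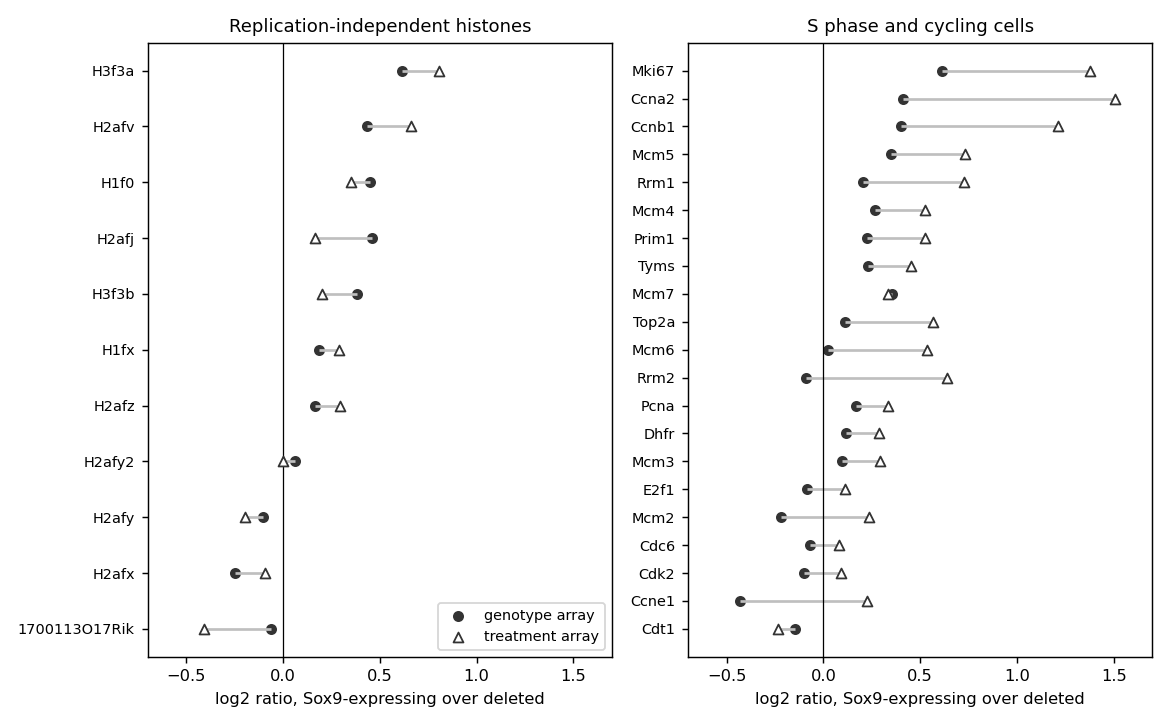
Log2 ratio of Sox9-expressing over Sox9-deleted RNA (x axis) for the genes tested of 2 related lists, histones not made only in S phase (left) and genes of S phase and cycling cells (right), with filled circles for the genotype array and open triangles for the treatment array. By the mean of the arrays H3f3a leads the left list at 0.62 and 0.80, and Mki67 the right list at 0.61 and 1.38, although Ccna2 was higher on the treatment array at 1.51.

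As a check of the labels, the brightest Sox9 probe measured 1633 and 252 on the genotype array and 1200 and 233 on the treatment array (log2 ratios 2.69 and 2.37), a second was at 1.18 and 1.27, and another, printed 10 times, was opposite at -0.997 and -1.22. All 4 basal markers examined (Krt5, Krt14, Krt15 and Trp63) were well above background in every RNA and higher with Sox9, by mean log2 ratios from 1.07 to 2.02. Of the prostate markers given here, Hoxb13 was above background, whereas Pbsn was not in any RNA. Neither were Ptprc and Cd3e of leukocytes nor Pecam1 of endothelium, while Cdh5 and Cd68 were. Cd68, of macrophages, was lower with Sox9 on both arrays, at -0.69 and -0.77 (limma unadjusted p = 0.000835), as were Hist1h4i and Hist3h2a, and its part in their values was not tested. Of 5 simple and luminal epithelial markers, Krt18 was at -0.28 and -1.01, Cdh1 at -0.31 and -0.32 and Epcam at 0.46 and 0.37.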

How the data were processed

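The authors deposited, for each of 2 arrays, the mean and local background intensity of every spot in both dyes as read by Agilent Feature Extraction 10.5.1.1, with its log10 ratio of processed signals, and a table of processed values that behave as log2 ratios of Cy5 over Cy3 and whose making is not given in the sources used here. Background was corrected with normexp (offset 50) and loess was run within each array in limma 3.58.1 (R 4.3.3). Of 45018 spots, 1639 controls and 126 and 130 outlier spots were left out. The mean of the 2 arrays was tested against 0 with limma, 2-sided, with Benjamini-Hochberg adjustment over the 22731 probes that the scanner software marked as well above background on both arrays in Cy5 or on both in Cy3. A gene is its brightest probe, and no spot was saturated. The offset shrinks log2 ratios of dim probes. With 2 arrays the variance leans on the prior that limma fits (2.8 degrees of freedom, SD 0.119, in the main setting), and precision is limited by how few arrays there are.

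The members and the lists were chosen with earlier results of these data known. Genes named are the 3 largest means and the 2 brightest genes of each class, those with an unadjusted p under 0.05 or a log2 ratio of at least 1 or at most -1 on an array, the germ cell histones, and, of related lists, Slbp, Npat and up to 4 genes with the smallest p under 0.05; others were named after their values were seen. Some marker genes of the lists are not reported here. RefSeq sequences and names were matched for 34 of 36 genes. The code was tested on simulated data. Tables and plots were made in Python 3.11.15 (pandas 2.3.3, numpy 2.4.6, matplotlib 3.10.9) and R. Alternatives were other offsets, scalings, filters and probes, the deposited ratios, each array alone and the methods' t-test.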

Additional observations from a re-analysis of the deposited data

How the results depend on the processing

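Centring each array on its median, without loess, moved most: 3 histone genes were then lower on both arrays, the median over the histone genes tested was 0.33, and 5 passed an adjusted p under 0.05 in limma, all higher with Sox9 (Hist1h1a, Hist1h1e, Hist1h2af, Hist1h2ak and Hist2h2ac), where 522 probes of the whole array did. The 5 are out of 29 histone genes, and the 522 out of 22731 probes tested. Limma's p in that setting went by the size of the mean and not by a gene's own SD between the arrays. Hist1h2af and Hist2h2ac, both with a mean of 0.90 but SDs of 0.36 and 0.29, had limma unadjusted p of 0.000999 and 0.00101. These 5 calls therefore do not measure the spread between the 2 arrays. That setting leaves the medians of all probes tested at 0.02 and 0.38, so the array as a whole shifted too. Medians of the histone genes were then -0.02 and 0.68, above that of all probes on the treatment array only. Median centring turned the means of Hist1h4d to 0.33, Hist1h4f to 0.30 and Hist2h3c1 to 0.52. Hist2h3c1, at 0.00 to begin with, was also above 0 with an offset of 10 (0.0012), without background subtraction (0.016) and with arrays scaled to 1 spread (0.034). The mean over all tested probes put Hist1h4d at 0.18, and the scanner software's ratios put Hist1h3d at -0.026. Leaving out either array (without replicate 1 or 2) gave 13 to 17 histone genes higher, 12 to 16 lower and a median of -0.02 to 0.08. Without array 1, the genotype array, 17 genes were higher, and without array 2, the treatment array, 16 were lower. Counts of genes higher or lower, the median and the count of calls under the other settings stayed within 1.5 times or 1 SD of the values given. The methods' t-test gave 2 histone genes, Hist3h2a and Hist1h4i, under the 0.05 threshold without adjustment and 0 after Benjamini-Hochberg adjustment. With the 19 genes whose probe is listed for 1 gene at most, chosen after seeing the data, 8 were higher and 8 lower. No paired analysis was possible because both arrays belong to 1 group and each is a ratio of 2 RNAs. Dim probes limit what can be seen of Hist1h1b, Hist1h2ab and Hist2h2be.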
